A study of Drosophila melanogaster with 32 samples.

Results

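Mitochondrially encoded transcripts were followed through sorted somatic and germ line cells of the larval ovary of Drosophila melanogaster. The members were all rows of the gene count table whose FlyBase symbol starts with "mt:". These were 36 of 16257 genes, made up of 13 protein-coding genes, 2 rRNA genes and 21 tRNA genes. Membership depends on the symbol alone, but the set was taken up with a higher early somatic share under yki RNAi already known from these libraries.

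Cells expressing GFP were sorted by flow cytometry, and their poly-A RNA was sequenced as 50 bp single-end reads. In somatic cells the driver bab:GAL4 switched on UAS GFP together with an RNAi hairpin against yorkie (yki) or hippo (hpo). In germ cells nos:GAL4, a stock that also carries UAS-Dcr-2, did the same. Hippo is a kinase that restrains growth, and Yorkie is the transcriptional co-activator that the Hippo pathway holds back. The somatic groups were yki RNAi and hpo RNAi cells at 72 hours after egg laying (early, third-instar larvae), 96 hours (mid, third-instar larvae) and 120 hours (late, white pupae). The germ line groups were yki RNAi and hpo RNAi cells at 96 and 120 hours, and each of the 10 groups held 3 biological replicates according to the series' design. The germ line at 72 hours and untreated cells were not analysed here, so each comparison is between RNAi conditions, between cell types or between stages. The drivers limit the groups as models: the somatic sort takes cells in which bab:GAL4 is active, and every cell analysed carried a hairpin.

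Animal mitochondria keep a small circular genome that codes for core subunits of respiratory complexes I, III, IV and V, both RNAs of the mitochondrial ribosome, and tRNAs. In the fly it is transcribed from both strands into long precursors, which are cut largely at the tRNAs and then polyadenylated. All other subunits of these complexes, the proteins of the mitochondrial ribosome and the factors that copy and transcribe the genome are encoded in the nucleus. Growth of the female germ line is a well-known setting for mitochondrial genome amplification.

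The 30 libraries held 15196773 to 75088445 counts, the fewest mitochondrial counts in a library being 460688. Knockdown was read from hpo and yki themselves. In somatic yki RNAi libraries hpo stood at 72.8 to 129 CPM (the count scaled to a library total of 1000000), against 5.29 to 26.6 CPM in somatic hpo RNAi libraries. The yki transcript stood at 5.05 to 14.9 CPM in somatic yki RNAi libraries, against 16.5 to 32.9 CPM in somatic hpo RNAi libraries. In the germ line hpo stood at 52.9 to 79.4 CPM in yki RNAi libraries, against 5.69 to 18.1 CPM in hpo RNAi libraries. Germ line yki ran from 6.92 to 9.58 CPM in yki RNAi libraries, against 9.26 to 15.8 CPM in hpo RNAi libraries, so that these ranges overlapped. The 10 germ line markers measured (such as vas and aub) summed to 359 to 623 CPM in somatic libraries, against 7477 to 9296 CPM in germ line libraries. The 9 ovarian somatic markers (such as tj and bab1) summed to 1439 to 3722 CPM in somatic libraries, against 22.6 to 154 CPM in germ line libraries. The sorted cell types thus matched their labels, while germ line transcripts were still measurable in somatic libraries. Replicate 1 of the mid hpo RNAi germ line held the 154 CPM of somatic markers, beside at most 46.3 CPM in the other germ line libraries. In bulk RNA, fewer mitochondria, fewer cells of a type and less RNA per cell cannot be told apart.

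All 15 protein-coding and rRNA genes had at least 10 counts in each of the 30 libraries. Complex I (NADH dehydrogenase, the entry point of electrons from NADH) is represented by 7 genes. These are mt:ND2 (FBgn0013680, positions 240 to 1263), mt:ND3 (FBgn0013681, 5608 to 5961) and mt:ND6 (FBgn0013685, 9971 to 10495) on the plus strand. The minus strand holds mt:ND5 (FBgn0013684, 6409 to 8125), mt:ND4 (FBgn0262952, 8207 to 9545), mt:ND4L (FBgn0013683, 9545 to 9835) and mt:ND1 (FBgn0013679, 11721 to 12659). Complex III, which passes electrons to cytochrome c, is represented by its cytochrome b, mt:Cyt-b (FBgn0013678, plus strand, 10499 to 11635). The catalytic core of complex IV, cytochrome c oxidase, comes from mt:CoI (FBgn0013674, 1474 to 3009), mt:CoII (FBgn0013675, 3083 to 3767) and mt:CoIII (FBgn0013676, 4736 to 5524), all on the plus strand. Complex V, the ATP synthase, takes mt:ATPase8 (FBgn0013673, 3907 to 4068) and mt:ATPase6 (FBgn0013672, 4062 to 4736) from the plus strand. The rRNAs are mt:lrRNA (FBgn0013686, minus strand, 12735 to 14058), the RNA of the large ribosomal subunit, and mt:srRNA (FBgn0013688, minus strand, 14131 to 14916), that of the small subunit. Positions are on the mitochondrion_genome sequence of the BDGP6.54 annotation; the build of the counts is not given in the sources used here. mt:ATPase8 and mt:ATPase6 overlap by 7 bases, mt:ATPase6 and mt:CoIII by 1, and mt:ND4 and mt:ND4L by 1, each pair on the same strand.

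Level per length was compared as CPM per kilobase of annotated gene, averaged over the 10 group means. It is the level in poly-A selected RNA. mt:lrRNA stood highest, at 19752 CPM per kilobase, and held that place in 30 of 30 libraries. mt:CoI followed at 8303, mt:CoII at 6364, mt:ATPase6 at 5838 and mt:Cyt-b at 4255. mt:CoII and mt:ATPase6 were not separated in order, since mt:CoII was above mt:ATPase6 in 14 of 30 libraries, and the order went by cell type: mt:CoII was above in 4 of 18 somatic and 10 of 12 germ line libraries, all 6 yki RNAi ones included. A middle band held mt:ND1 at 2260 CPM per kilobase, mt:CoIII at 1856, mt:ND2 at 1040, mt:ND4 at 1028 and mt:ND5 at 848. Within it mt:ND2 exceeded mt:ND4 in 13 of 30 libraries, made up of 4 of 18 somatic and 9 of 12 germ line libraries, whereas mt:ND1 exceeded mt:CoIII in 25. mt:ND3 stood at 336 CPM per kilobase and mt:ATPase8 at 267, and the lowest were mt:ND6 at 75.1, mt:srRNA at 66.6 and mt:ND4L at 40.1. mt:ND3 exceeded mt:ATPase8 in 20 of 30 libraries, made up of 15 of 18 somatic and 5 of 12 germ line libraries. mt:ND6 exceeded mt:srRNA in 18 of 30 libraries and mt:srRNA exceeded mt:ND4L in 23.

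**Figure D1:**
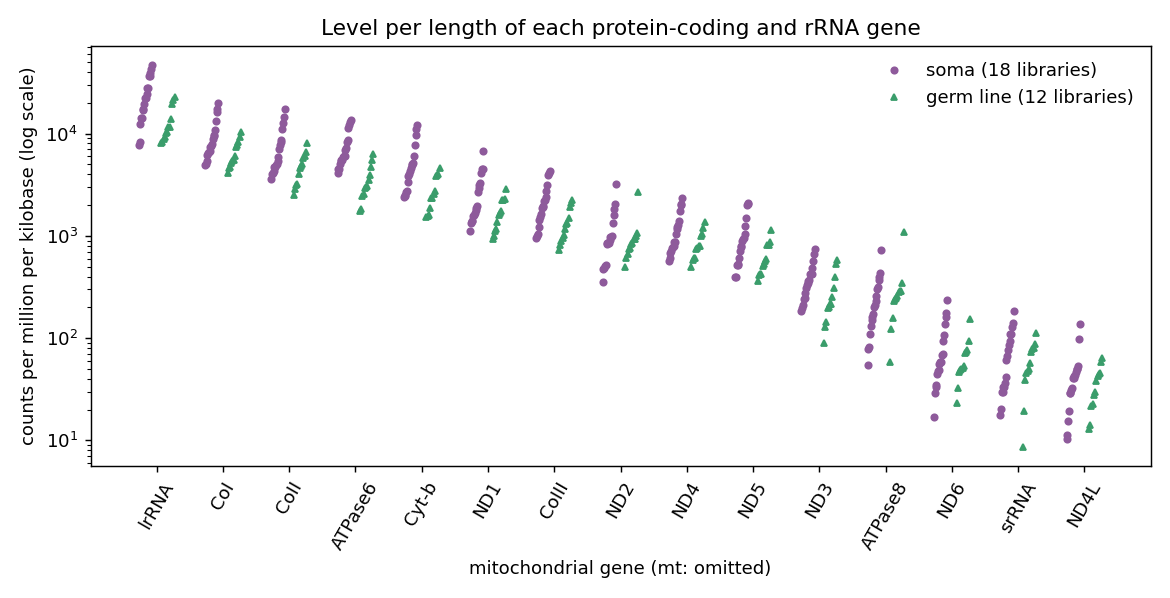
Level per length of the 13 protein-coding and 2 rRNA genes, in CPM per kilobase on a log scale, 1 point per library (18 somatic circles, left, and 12 germ line triangles, right, of each gene, sorted by value). From mt:lrRNA at the top to mt:ND4L at the bottom the averaged level runs from 19752 to 40.1.

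Genes that share a transcript or a precursor differed widely in this measure. mt:ATPase6 and mt:ATPase8 are known from a shared mRNA, yet the per-length ratio of mt:ATPase6 to mt:ATPase8 was 3.59 to 81.4 over the libraries (median 31.1). For mt:ND4 to mt:ND4L, a pair that likewise shares an mRNA, it was 8.91 to 134 (median 26.4). For mt:lrRNA to mt:srRNA, neighbours on the same strand, it was 99.4 to 1260 (median 262). The libraries were made from poly-A RNA, so this ratio also depends on capture of each rRNA by its tail. It does not give the relative amounts of the rRNAs in the cells. All values of mt:ATPase6, mt:ATPase8, mt:ND4 and mt:ND4L were whole numbers, and the pairs overlap by 7 bases and 1 base. The part of read assignment in these ratios was not tested. Nor was that of the starting positions of 50-base reads within the 162 bases of mt:ATPase8. The levels of mt:ATPase8 and mt:ND4L are to be taken as uncertain. mt:ND4L had as few as 69 counts in a library, mt:srRNA as few as 114 and mt:ATPase8 as few as 204.

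The 36 genes together took 2.57% to 13.7% of a library's counts (median 5.23%). mt:lrRNA alone made up 29.8% to 55.7% of the mitochondrial counts (median 44.0%). It was the most abundant gene of the whole table in most libraries and never below rank 4. Among the protein-coding counts, the genes of the plus strand held 83.9% to 86.9% in the 10 group means and those of the minus strand 13.1% to 16.1%. This split hardly moved while the total share moved several-fold. By complex, complex IV held 27.4% to 39.7% of mitochondrial counts in the group means, complex I 8.71% to 12.6%, complex III 6.75% to 8.75% and complex V 4.95% to 8.93%.

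The share of counts on mitochondrial genes was higher in early somatic cells under yki RNAi than under hpo RNAi. It was 6.05%, 7.94% and 10.6% in the 3 early somatic yki RNAi libraries, against 3.42%, 3.27% and 4.15% in the early somatic hpo RNAi libraries. The means were 8.20% ± 2.28 under yki RNAi and 3.61% ± 0.47 under hpo RNAi (SD, n = 3 each), a ratio of 2.27, and the groups did not overlap. Protein-coding genes alone took 4.57% ± 1.05 under yki RNAi and 2.28% ± 0.04 under hpo RNAi (SD, n = 3 each). This difference was known when the members were taken up, so it is given as a description, without a test of the share.

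**Figure D2:**
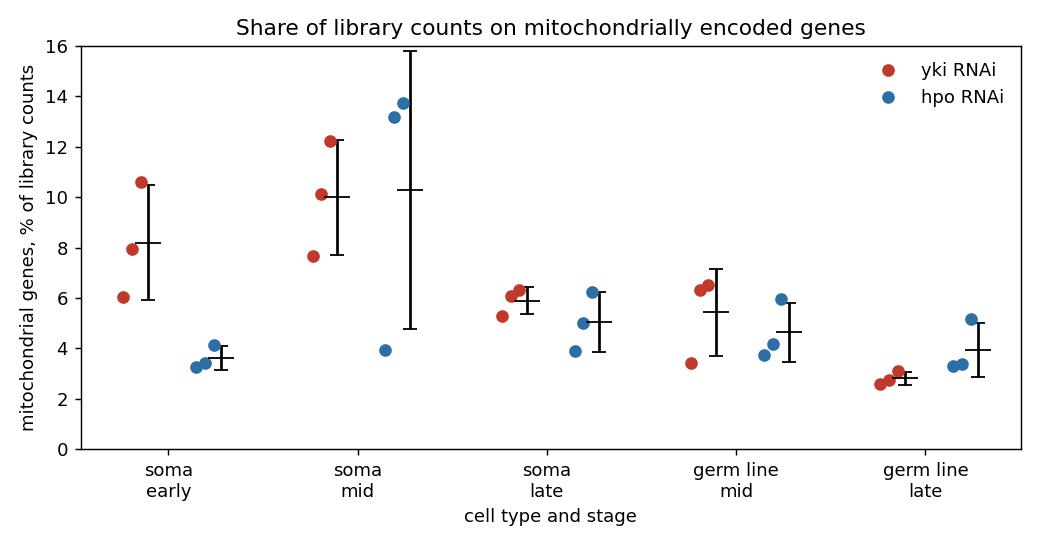
Share of each library's counts that fell on the 36 mitochondrially encoded genes, in percent, by cell type and stage, with yki RNAi (red) left of hpo RNAi (blue); points are libraries, and the bars are the mean and SD of 3 libraries. The early somatic groups do not overlap (6.05% to 10.6% under yki RNAi against 3.27% to 4.15% under hpo RNAi), and 1 mid somatic hpo RNAi library (3.92%) lies far below the other 2.

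At the mid stage the somatic share was 7.66%, 10.1% and 12.2% under yki RNAi, against 3.92%, 13.7% and 13.2% under hpo RNAi. Replicate 1 of the mid somatic hpo RNAi group stood apart, near the early hpo RNAi level, and it was the shallowest somatic library (15334185 counts). Without it the means were 9.99% under yki RNAi and 13.5% under hpo RNAi (10.3% with it), and the groups no longer overlapped. At the late stage the somatic share was 6.06%, 6.31% and 5.29% under yki RNAi, against 4.99%, 3.88% and 6.24% under hpo RNAi, and the ranges overlapped.

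In the mid germ line the share was 3.44%, 6.53% and 6.33% under yki RNAi, against 4.17%, 3.75% and 5.97% under hpo RNAi, with overlapping ranges. In the late germ line it was 3.11%, 2.74% and 2.57% under yki RNAi, against 3.36%, 5.17% and 3.30% under hpo RNAi. The late germ line groups did not overlap, with the lower share under yki RNAi (mean 2.81% ± 0.27 against 3.95% ± 1.06 under hpo RNAi, SD, n = 3 each).

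The early somatic values per gene come from the libraries in which the share difference was already known, so they describe it by gene and add no independent support. All 15 protein-coding and rRNA members had a positive early somatic log2 fold change (yki RNAi over hpo RNAi), from 0.45 to 1.47 with a median of 1.13, beside a median near 0 (-0.00) over all 10672 genes tested. None of the 21 members tested passed an adjusted p of 0.05 in edgeR's quasi-likelihood test with Benjamini-Hochberg adjustment over all genes, where 2.45% of genes tested passed. At an unadjusted p under 0.05 there were 12 members of 21, where 20% of all genes were. DESeq2, run as an alternative, called 10 members, all higher, beside 7.83% of its genes tested in either direction and 4.23% higher. Without overlap between the groups in CPM, 12 of the 15 were higher, and so was the tRNA gene mt:tRNA:Tyr-GTA; the share of all genes without overlap was 14.2%, of which 7.2% higher. The exceptions were mt:ATPase8, mt:ND4L and mt:srRNA. Their median counts over the 30 libraries were 1095.5, 289 and 1241, beside 763 for mt:ND6, which did not overlap.

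mt:lrRNA stood at 22987, 37138 and 48247 CPM in early somatic yki RNAi libraries, against 10876, 10223 and 18828 CPM in early somatic hpo RNAi libraries. Every yki RNAi library was above every hpo RNAi library, with a log2 fold change of 1.46 ± 0.42 (SE) and an adjusted p of 0.0747 in edgeR's test. mt:lrRNA is also the largest single part of the known share difference, and its side of the threshold depended on single libraries: the adjusted p was 0.0382 without replicate 4 of the hpo RNAi group and 0.038 without replicate 1 of the yki RNAi group, each with 1 called member. mt:ND5 had 1794, 1625 and 2545 CPM under yki RNAi, against 675, 684 and 914 CPM under hpo RNAi (log2 fold change 1.41 ± 0.41, adjusted p = 0.0779 in edgeR). mt:ND1 had 2516, 3100 and 3824 CPM under yki RNAi, against 1257, 1309 and 1559 CPM under hpo RNAi (1.21 ± 0.35, adjusted p = 0.079). In both complex I genes the lowest yki RNAi library was above the highest hpo RNAi library.

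mt:ND2 had 1015, 1004 and 1625 CPM under yki RNAi, against 365, 483 and 531 CPM under hpo RNAi (log2 fold change 1.42 ± 0.45, adjusted p = 0.11 in edgeR). mt:Cyt-b, the complex III member, had 5262, 5840 and 8797 CPM under yki RNAi, against 2770, 2707 and 3039 CPM under hpo RNAi (1.24 ± 0.42, adjusted p = 0.122). Neither gene's groups overlapped, and mt:Cyt-b was tight under hpo RNAi and more spread under yki RNAi. The complex I genes mt:ND3, mt:ND4 and mt:ND6 had log2 fold changes of 0.96, 1.07 and 1.47, none of them called in edgeR's test. In complex IV the log2 fold changes were 1.13 for mt:CoII and 1.18 for mt:CoIII, with adjusted p = 0.113 and 0.109 in edgeR. mt:CoI had 14464, 14950 and 20332 CPM under yki RNAi, against 10365, 9484 and 8300 CPM under hpo RNAi (0.84 ± 0.38, adjusted p = 0.225 in edgeR). In complex V mt:ATPase6 had 4065, 5854 and 7608 CPM under yki RNAi, against 3073, 3370 and 3017 CPM under hpo RNAi (0.91 ± 0.33, adjusted p = 0.151). These genes too were separated between the groups, with a smaller difference for mt:CoI and mt:ATPase6 than for mt:lrRNA, a contrast between members that was not tested.

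The members named as exceptions overlapped. mt:ATPase8 had 69.8, 17.9 and 37.0 CPM under yki RNAi, against 24.6, 42.2 and 8.89 CPM under hpo RNAi. mt:ND4L had 9.09, 3.0 and 11.8 CPM under yki RNAi, against 5.69, 3.32 and 8.51 CPM under hpo RNAi. mt:srRNA had 26.0, 110 and 146 CPM under yki RNAi, against 48.4, 26.4 and 60.7 CPM under hpo RNAi, with 1 yki RNAi library at the hpo RNAi level.

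**Figure D3:**
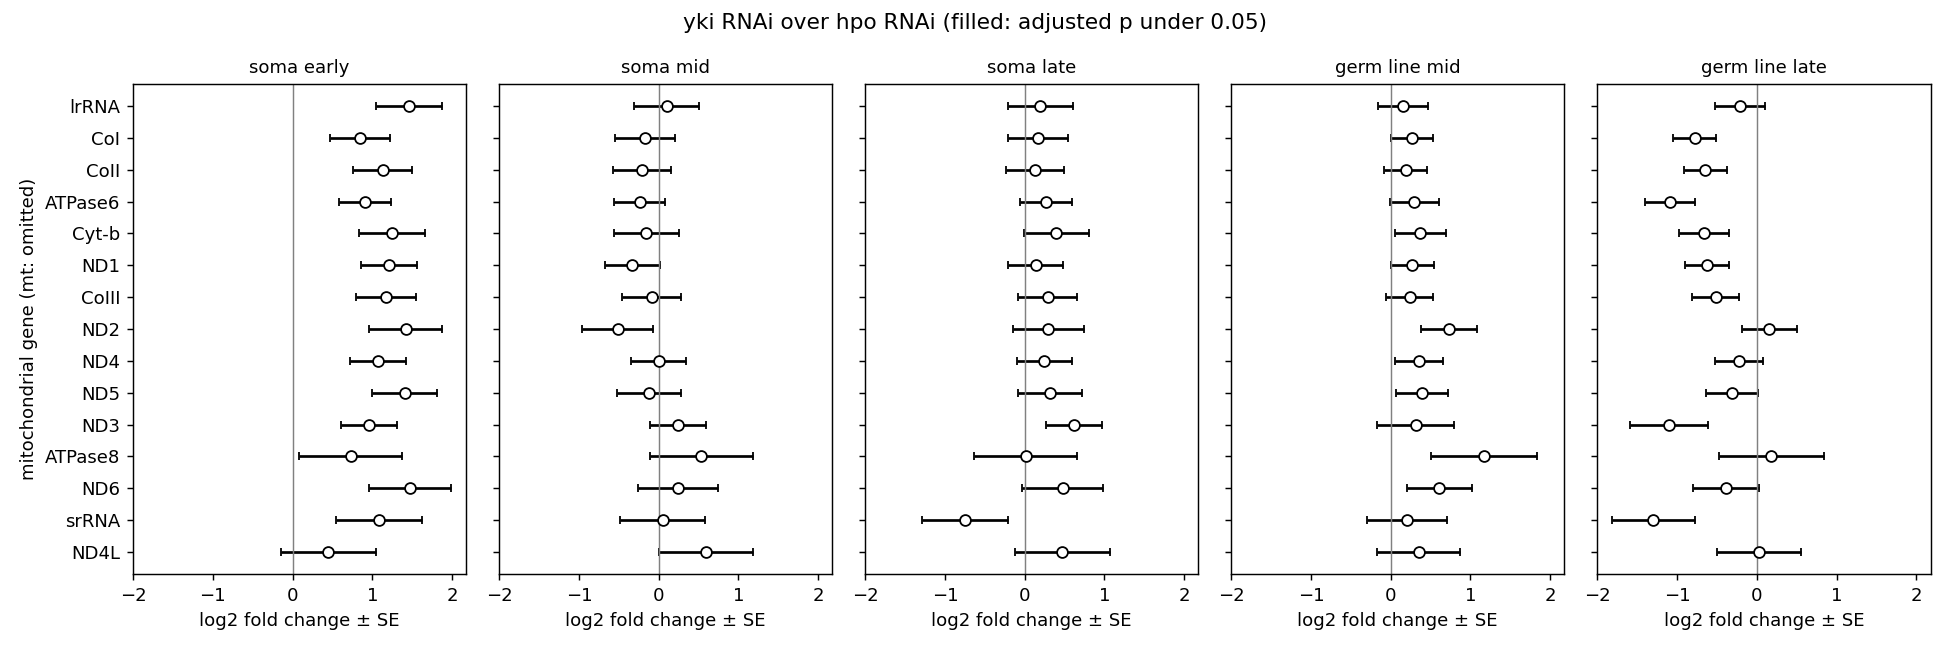
Log2 fold change of yki RNAi over hpo RNAi with its SE for each of the 15 protein-coding and rRNA genes, in 5 panels by cell type and stage; filled points would mark an adjusted p under 0.05, and none is filled. All 15 points lie above 0 in early soma (0.45 to 1.47), while in the late germ line 12 of 15 lie below 0.

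Several other measures differed between the early somatic groups. The 6 Hsp70 genes, a sign of heat or handling stress, summed to 309, 211 and 374 CPM in yki RNAi libraries, against 533, 2361 and 386 CPM in hpo RNAi libraries, without overlap. Nuclear rRNA genes took 0.72%, 4.47% and 1.89% of counts in yki RNAi libraries, against 1.07%, 0.47% and 4.02% in hpo RNAi libraries, with overlap. Of the marker lists, the 7 hemocyte genes summed to 29.6 to 34.0 CPM under yki RNAi, against 34.8 to 49.9 CPM under hpo RNAi, with NimC1, eater and PPO2 at 0 in both groups and PPO1 at 0 under hpo RNAi. Muscle, fat body, germ line and ovarian soma lists overlapped between the groups. The part of Hsp70 and hemocyte transcripts in the mitochondrial difference was not tested.

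In the other RNAi comparisons edgeR's test called none of the members tested (21 in soma, 23 in the germ line), where 2.5% (mid soma), 1.03% (late soma), 0.103% (mid germ line) and 0.187% (late germ line) of all genes passed. DESeq2 called 0 members in mid soma (5.5% of its genes passed), late soma (2.01%) and the mid germ line (0.788%), and 1, mt:ATPase6, in the late germ line (1.09%). At an unadjusted p under 0.05 edgeR gave 0 members in mid soma (12.7% of all genes), 0 in late soma (5.76%), 1 in the mid germ line (6.9%) and 6 in the late germ line (7.67%). Median log2 fold changes of the 15 protein-coding and rRNA genes were -0.08 in mid soma, 0.27 in late soma, 0.32 in the mid germ line and -0.52 in the late germ line. In the late germ line mt:ATPase6 had 1668, 1231 and 1192 CPM under yki RNAi, against 2380, 4216 and 2042 CPM under hpo RNAi. These groups did not overlap, with a log2 fold change of -1.09 ± 0.31 (SE), an adjusted p of 0.355 in edgeR and of 0.0394 in DESeq2.

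Tests of whether the RNAi difference itself changed between stages or cell types called no member in edgeR's quasi-likelihood test or in DESeq2. Those with early soma use the libraries in which the share difference was already known, so they add no independent support. For early minus mid soma the median difference of the 15 log2 fold changes was 1.23, with 14 of 15 above 0, 9 members of 21 at an unadjusted p under 0.05 (11.9% of all genes) and a smallest adjusted p of 0.235. By adjusted p 0.131% of all genes passed in edgeR and 2.34% in DESeq2. Leaving out replicate 1 of the mid somatic hpo RNAi group gave 3 called members, mt:ND1, mt:ND2 and mt:ND5. For early minus late soma the median was 0.89 with 3 members at an unadjusted p under 0.05 (8.6% of all genes), where by adjusted p 0.375% of genes passed in edgeR and 1.79% in DESeq2. Between soma and germ line the median difference was -0.48 at the mid stage and 0.76 at the late stage, with 1 member (9.5% of all genes) and 2 members (6.4%) at an unadjusted p under 0.05, where by adjusted p 0.165% and 0.182% of genes passed in edgeR and 1.78% and 0.855% in DESeq2.

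Mean mitochondrial shares were higher in soma than in the germ line in all 4 comparisons matched for RNAi and stage, and without overlap under yki RNAi. Under yki RNAi the mean share was 9.99% ± 2.28 in mid soma and 5.43% ± 1.73 in the mid germ line, and 5.89% ± 0.53 in late soma and 2.81% ± 0.27 in the late germ line (SD, n = 3 each), without overlap at either stage. Under hpo RNAi it was 10.3% ± 5.52 in mid soma and 4.63% ± 1.18 in the mid germ line, with replicate 1 of the somatic group inside the germ line range. In the late stage it was 5.04% ± 1.18 in hpo RNAi soma and 3.95% ± 1.06 in the hpo RNAi germ line, with overlap, and the protein-coding share was 2.59% in both. Markers of other cell types moved with cell type as well. The 7 hemocyte genes summed to 940 to 1858 CPM in late soma, against 7.23 to 11.8 CPM in the late germ line, and to 57.0 to 180 CPM in mid soma, against 5.13 to 61.9 CPM in the mid germ line. The 10 muscle genes summed to 201 to 315 CPM in late soma, against 28.4 to 57.5 CPM in the late germ line, and to 53.7 to 109 CPM in mid soma, against 32.3 to 103 CPM in the mid germ line. The 7 fat body genes summed to 0 to 8.93 CPM in mid and late soma, against 19.6 to 44.8 CPM in the germ line. In both late somatic groups PPO1, PPO2 and Mlc1 were at 0. The highest mid germ line sums of the hemocyte and muscle genes, 61.9 and 103 CPM, were both in replicate 1 of the hpo RNAi group. Without that library, mid hpo RNAi soma over germ line gave 10 called members in edgeR's test, against 11 with it. The part of these marker transcripts in the differences between cell types was not tested.

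In edgeR's test of soma over germ line, 9 of the 24 members tested rose and 1 fell in yki RNAi cells at the mid stage, where 38.9% of genes passed (19.5% higher and 19.4% lower). At the late stage of yki RNAi 9 rose and 1 fell, where 38.1% of genes passed (19.8% higher and 18.3% lower). In mid hpo RNAi cells 11 rose and none fell, where 37.9% passed (19.4% higher and 18.5% lower), and in late hpo RNAi cells 1 rose and 1 fell, where 36.7% passed (19.1% higher and 17.6% lower). In either direction 10, 10, 11 and 2 of the 24 members were called in these comparisons. These counts were near the background, except in late hpo RNAi cells, where the count was below it. The median log2 fold changes of the 15 protein-coding and rRNA genes were 1.05 (yki RNAi mid), 1.21 (yki RNAi late), 1.53 (hpo RNAi mid) and 0.50 (hpo RNAi late). The medians over all genes tested were -0.13, -0.13, -0.09 and -0.12 in the same comparisons. With library totals in place of TMM scaling the medians over all genes moved to -0.51, -0.53, -0.51 and -0.53, and those of the 15 to 0.69, 0.80, 1.08 and 0.08. On that scale 13, 13, 15 and 8 of the 15 lay above 0, against 15, 14, 15 and 14 with TMM. In late hpo RNAi cells 7 of the 15 thus lay below 0 with library totals, mt:CoI and mt:ND1 among them, and mt:lrRNA lost its call (adjusted p = 0.0721 in edgeR).

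mt:ATPase6, the proton channel subunit of the ATP synthase, led in 3 comparisons. It had 5566, 4638 and 8281 CPM in mid yki RNAi soma, against 2080, 2644 and 3686 CPM in the mid yki RNAi germ line (log2 fold change 1.51 ± 0.35, adjusted p = 0.00119 in edgeR). It had 4835, 4116 and 3720 CPM in late yki RNAi soma, against 1668, 1231 and 1192 CPM in the late yki RNAi germ line (2.04 ± 0.36, adjusted p = 4.24e-05). It had 3624, 9237 and 8785 CPM in mid hpo RNAi soma, against 1968, 1724 and 3151 CPM in the mid hpo RNAi germ line (2.11 ± 0.36, adjusted p = 3.46e-05). None of these 3 pairs overlapped. In late hpo RNAi cells the same gene had 3736, 2759 and 3954 CPM in soma, against 2380, 4216 and 2042 CPM in the germ line, with overlap and no call (0.69 ± 0.35, adjusted p = 0.122).

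mt:lrRNA rose in all 4 comparisons. It had 37287, 56322 and 48096 CPM in mid yki RNAi soma, against 12195, 25986 and 30253 CPM in the germ line (log2 fold change 1.41, adjusted p = 0.00825 in edgeR). It had 29501, 29615 and 25584 CPM in late yki RNAi soma, against 13603, 11000 and 10671 CPM in the germ line (1.67, adjusted p = 0.00212). Under hpo RNAi it had 16303, 52308 and 61969 CPM in mid soma, against 18450, 15214 and 28094 CPM in the germ line, with overlap (1.53, adjusted p = 0.00466). In late hpo RNAi cells mt:lrRNA had 22555, 18869 and 31947 CPM in soma, against 11603, 15409 and 13415 CPM in the germ line (1.28, adjusted p = 0.016), and it was the 1 member tested there that was higher in soma without overlap, where 62.6% of all genes did not overlap (21.1% higher). Its share of mitochondrial counts was also higher in late soma, at 48.0% ± 0.9 in yki RNAi soma and 41.8% ± 1.9 in the yki RNAi germ line, and at 48.3% ± 3.0 in hpo RNAi soma and 35.0% ± 5.4 in the hpo RNAi germ line (SD, n = 3 each), without overlap in either. At the mid stage the groups overlapped. The mean share there was 47.9% in soma and 41.0% in the germ line under yki RNAi, and 42.2% and 44.0% under hpo RNAi.

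mt:Cyt-b rose in 3 of the comparisons, by log2 1.34 (mid yki RNAi, adjusted p = 0.0118 in edgeR), 1.79 (late yki RNAi, 0.00111) and 1.94 (mid hpo RNAi, 0.000599). mt:CoIII, a complex IV subunit, rose by 1.14 in mid yki RNAi cells (adjusted p = 0.0182). mt:ND3, a complex I subunit, had 151, 127 and 122 CPM in late yki RNAi soma, against 77.0, 45.8 and 31.8 CPM in the late yki RNAi germ line, without overlap (1.79, adjusted p = 0.00337). In mid hpo RNAi cells the complex I genes mt:ND5 and mt:ND1 rose by 1.69 (adjusted p = 0.00205) and 1.66 (0.000492). The remaining called members rose by 0.93 to 1.56 in log2. mt:ATPase8, mt:srRNA and mt:ND4L passed in none of the 4 comparisons.

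**Figure D4:**
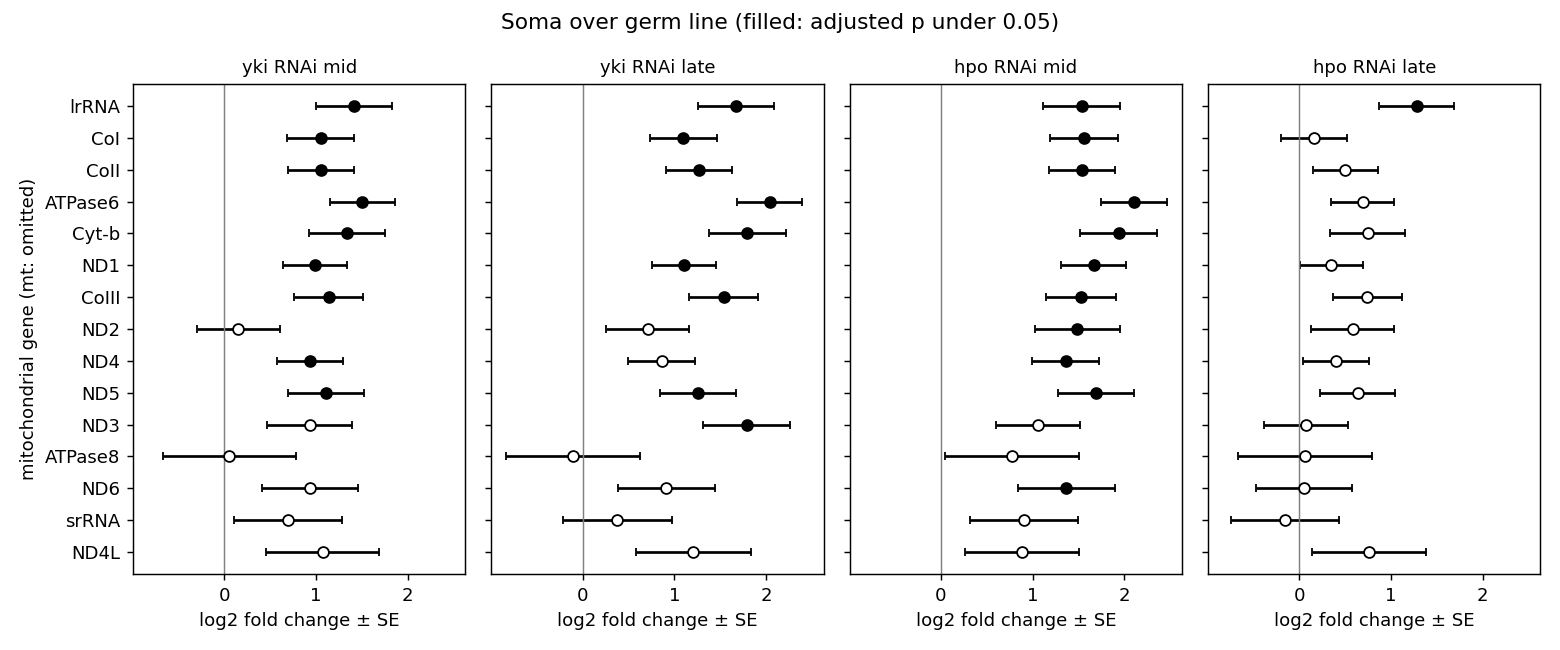
Log2 fold change of soma over germ line with its SE for the 15 protein-coding and rRNA genes, in 4 panels by RNAi and stage; filled points passed an adjusted p of 0.05 in edgeR's test. Filled points number 9, 9, 11 and 1 from left to right, with mt:ATPase6 reaching 2.04 and 2.11 in the middle panels.

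Some of these calls rest on single libraries. In mid yki RNAi cells the count of called members was 10, but 2 without somatic replicate 3 and 3 without germ line replicate 2. mt:ATPase6 passed in both cases, mt:Cyt-b in neither (adjusted p = 0.104 and 0.0684), mt:CoIII in neither (0.0919 and 0.113), and mt:lrRNA lost its call without germ line replicate 2 (0.0613). In late hpo RNAi cells mt:lrRNA lost its call without germ line replicate 1 (0.0602) or somatic replicate 3 (0.0888), which left 1 called member, and leaving out germ line replicate 2 or 4 gave 3 called members. The calls of mt:ATPase6, mt:Cyt-b, mt:ND3 and mt:lrRNA in late yki RNAi cells, and of mt:ATPase6, mt:Cyt-b, mt:ND5 and mt:ND1 in mid hpo RNAi cells, held without each library in turn.

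The tRNA genes called between cell types were all lower in soma than in the germ line. Of 21, 16 had a count in at least 1 library and 1, mt:tRNA:Cys-GCA, had at least 10 in all 30. mt:tRNA:Ile-GAT, mt:tRNA:Glu-TTC, mt:tRNA:Phe-GAA, mt:tRNA:Ser-TGA and mt:tRNA:Thr-TGT had no count anywhere, which allows up to 3 counts in a library. Reads of 50 bases from poly-A selected RNA are a poor measure of mature tRNAs, whose genes span 62 to 71 bases. Together they made up 0.0100% to 0.119% of mitochondrial counts in somatic libraries, against 0.0340% to 0.361% in germ line libraries, with overlap.

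mt:tRNA:Cys-GCA (FBgn0013690, minus strand, positions 1322 to 1383) overlaps mt:tRNA:Trp-TCA by 8 bases on the other strand, and the strand counted is not given in the sources used here. It had 1.09, 1.80 and 1.3 CPM in late yki RNAi soma, against 8.68, 8.57 and 6.31 CPM in the late yki RNAi germ line (log2 fold change -2.10 ± 0.71, adjusted p = 0.0203 in edgeR). It had 1.80, 0.954 and 1.23 CPM in late hpo RNAi soma, against 17.4, 18.1 and 4.64 CPM in the late hpo RNAi germ line (-2.93 ± 0.73, adjusted p = 0.00209). Both pairs were without overlap; under yki RNAi the call was lost without somatic replicate 1 (0.0805) or 3 (0.0693). mt:tRNA:Lys-CTT (FBgn0013697, plus strand, 3768 to 3838), directly downstream of mt:CoII, had 0.964, 1.71 and 0 CPM in mid yki RNAi soma, against 17.7, 51.1 and 3.87 CPM in the mid yki RNAi germ line, without overlap. Its log2 fold change was -4.40 ± 1.45 (adjusted p = 0.0176 in edgeR), and the call was lost without germ line replicate 3 (0.0998), somatic replicate 1 (0.0569) or somatic replicate 3 (0.0609).

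Across stages, somatic hpo RNAi cells had the widest movement. The mean share in yki RNAi soma was 8.20% ± 2.28 early, 9.99% ± 2.28 mid and 5.89% ± 0.53 late, and in hpo RNAi soma 3.61% ± 0.47 early, 10.3% ± 5.52 mid and 5.04% ± 1.18 late (SD, n = 3 each). In edgeR's test of mid over early hpo RNAi soma, 9 of the 21 members tested rose and none fell, where 2.72% of genes passed (1.15% higher). In late over mid hpo RNAi soma 8 fell and none rose, where 15.8% passed (6.38% lower). Both comparisons share the mid libraries. The early hpo RNAi libraries are the lower side of the share difference already known, so mid over early was not independent of that choice. The hemocyte markers summed to 70.2 to 180 CPM in mid hpo RNAi soma, against 34.8 to 49.9 CPM in early hpo RNAi soma, with NimC1, eater, PPO1 and PPO2 at 0 in both. The muscle markers summed to 53.7 to 78.1 CPM in mid hpo RNAi soma, against 138 to 155 CPM in early hpo RNAi soma, with Mlc1 at 0 in both. Their part in the stage difference was not tested. All 15 protein-coding and rRNA genes lay above 0 in mid over early (median log2 fold change 1.54) and below 0 in late over mid (median -1.12).

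mt:ND2 had 524, 3304 and 2075 CPM in mid hpo RNAi soma, against 365, 483 and 531 CPM in early hpo RNAi soma (log2 fold change 2.17 ± 0.47, adjusted p = 0.0154 in edgeR). Replicate 1 of the mid group lay just below the highest early library, while the other mid libraries were several-fold higher. The next largest changes of mid over early were 1.99 for mt:ND6 (adjusted p = 0.0464), 1.86 for mt:ND5 (0.0184) and 1.78 for mt:Cyt-b (0.028). mt:lrRNA had 16303, 52308 and 61969 CPM in mid hpo RNAi soma, against 10876, 10223 and 18828 CPM in early hpo RNAi soma, with overlap. Of late over mid, mt:ND1 had 1684, 1056 and 1474 CPM in late hpo RNAi soma, against 1761, 6365 and 4188 CPM in mid hpo RNAi soma, without overlap (-1.56 ± 0.36, adjusted p = 0.00473). mt:ND6 fell by 1.62 in log2 (adjusted p = 0.0386), mt:ND2 by 1.43 (0.0371) and mt:Cyt-b by 1.33 (0.0348). Of the 21 members, 4 were higher in mid than early without overlap (14.6% of all genes in either direction), and in late over mid 1 was lower (mt:ND1) and 2 were higher (mt:tRNA:Lys-CTT and mt:tRNA:Ala-TGC) without overlap (39.7% in either direction).

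These counts depended on single libraries. Mid over early gave 0 called members without early replicate 1, without early replicate 3 or without mid replicate 2. It gave 1 without mid replicate 3, 6 without early replicate 4 and 12 without mid replicate 1. Late over mid gave 1 called member without late replicate 2, mid replicate 2 or mid replicate 3, and 2 without late replicate 1 or 3. It gave 12 without mid replicate 1. mt:ND1 in late over mid passed without each library in turn, with adjusted p of at most 0.0413. With only the compared libraries in the fit, mid over early gave 0 called members (0.58% of genes passed) and late over mid gave 1 (24.2%).

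In yki RNAi soma no member was called for mid over early (0.684% of genes passed in edgeR's test), 1 was at an unadjusted p under 0.05 (11.7% of all genes), DESeq2 also called 0 (3.41% of its genes passed), and the median log2 fold change of the 15 was 0.24. For late over mid, 2 of 21 fell, where 13.2% of genes passed (6.53% lower). mt:srRNA had 23.2, 14 and 23.1 CPM in late yki RNAi soma, against 86.3, 66.7 and 74.5 CPM in mid yki RNAi soma, without overlap (log2 fold change -1.91 ± 0.56, adjusted p = 0.0268). mt:ND1 had 1511, 1849 and 1319 CPM in late yki RNAi soma, against 2741, 2943 and 4213 CPM in mid yki RNAi soma, without overlap (-1.09 ± 0.35, adjusted p = 0.0462). All 15 lay below 0 (median -0.78), and 13 members were lower and 1, mt:tRNA:Lys-CTT, higher without overlap beside 35.8% of all genes in either direction (15.5% lower). mt:ND1 lost its call without any 1 of the 6 libraries (adjusted p 0.0568 to 0.181). mt:srRNA lost it without late replicate 1 (0.0652), 2 (0.114) or 3 (0.0709) or mid replicate 1 (0.0717) or 2 (0.0515). The count without a library was 0 or 1: mt:srRNA passed without mid replicate 3, and mt:ND6 passed without mid replicate 1.

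The late somatic libraries also differed from the mid ones in hemocyte transcripts. The 7 hemocyte markers summed to 1670 to 1858 CPM in late yki RNAi soma, against 57.0 to 140 CPM in mid yki RNAi soma, and to 940 to 1126 CPM in late hpo RNAi soma, against 70.2 to 180 CPM in mid hpo RNAi soma. Of this list, PPO1 and PPO2 were at 0 in both late groups, NimC1 in late yki RNAi soma and eater in late hpo RNAi soma. The 10 muscle markers summed to 201 to 242 CPM in late yki RNAi soma, against 71.1 to 109 CPM in mid yki RNAi soma, and to 283 to 315 CPM in late hpo RNAi soma, against 53.7 to 78.1 CPM in mid hpo RNAi soma, with Mlc1 at 0 in both late groups. Their part in the lower late mitochondrial share was not tested.

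In the germ line no member was called for late over mid under either RNAi (0.0187% of genes passed under yki RNAi and 0% under hpo RNAi in edgeR's test). Under yki RNAi all 15 lay below 0, from -1.61 to -0.78 with a median of -1.15, beside a median of -0.04 over all genes. There 13 members of 23 were at an unadjusted p under 0.05 (5.63% of all genes), DESeq2 called 4 (0.367% of its genes passed), and 11 were lower without overlap beside 12.6% of all genes in either direction (5.34% lower). mt:CoII, called by DESeq2 (adjusted p = 0.00556), had 2159, 1734 and 1960 CPM in the late yki RNAi germ line, against 3167, 5571 and 3995 CPM in the mid yki RNAi germ line, without overlap (edgeR log2 fold change -1.19 ± 0.27, adjusted p = 0.542). Under hpo RNAi the median was -0.29, no member was at an unadjusted p under 0.05 (6.15% of all genes), and DESeq2 called 0 (0.736% of its genes passed).

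**Figure D5:**
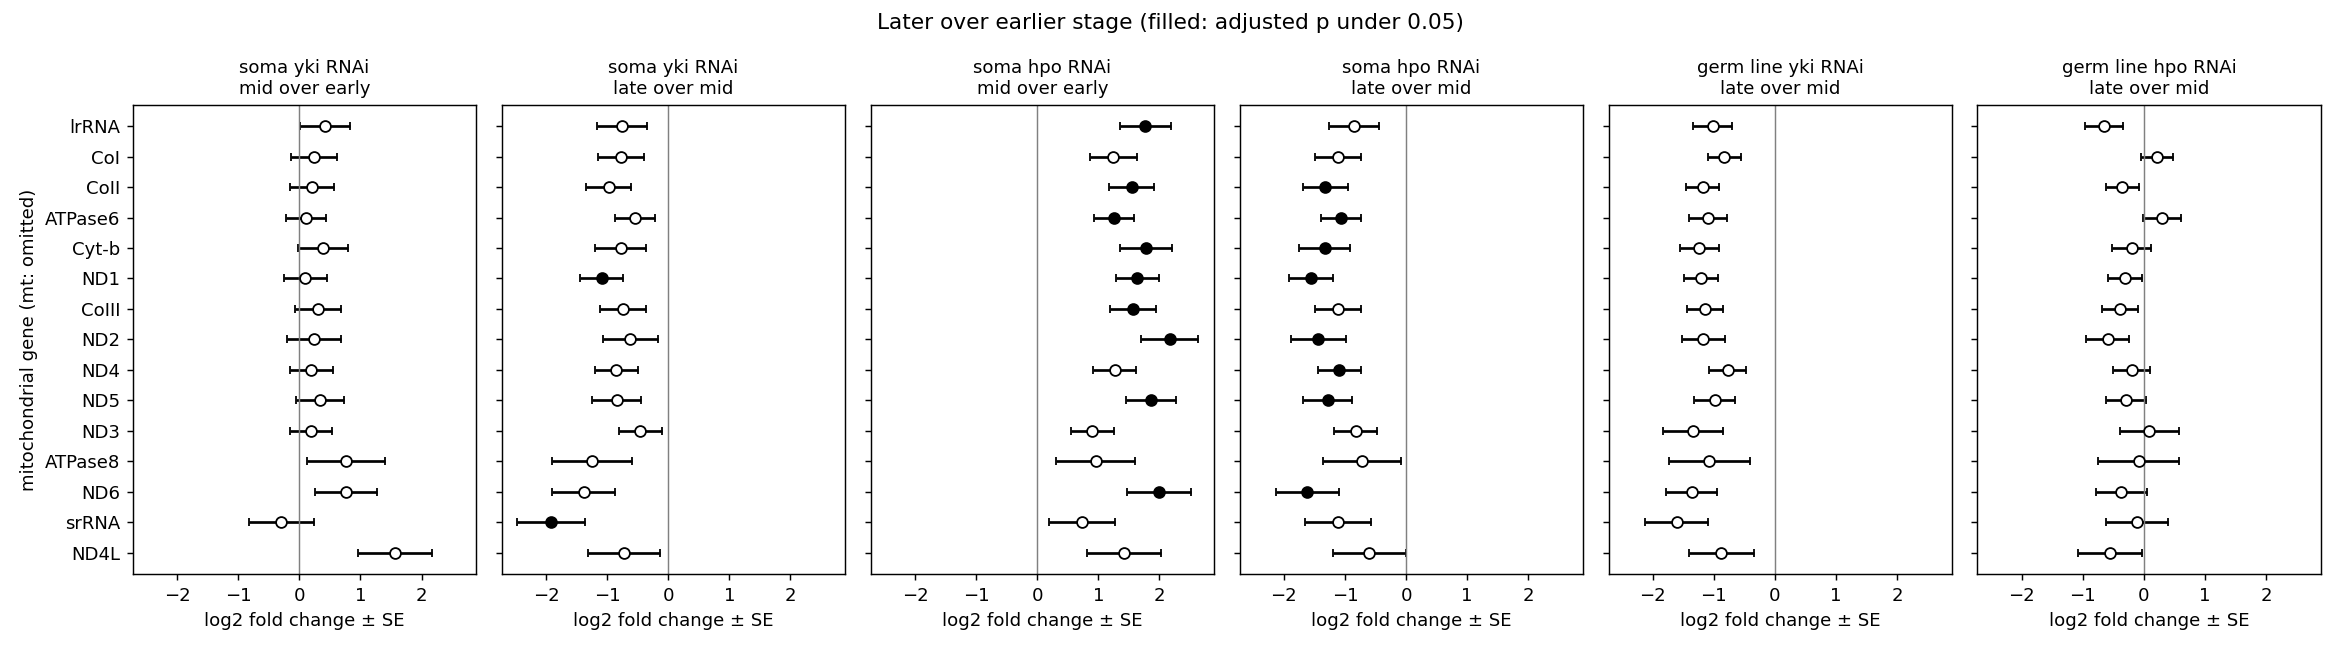
Log2 fold change of the later over the earlier stage with its SE for the 15 protein-coding and rRNA genes, in 6 panels by cell type, RNAi and stage pair; filled points passed an adjusted p of 0.05 in edgeR's test. Hpo RNAi soma has 9 filled points above 0 (mid over early) and 8 below 0 (late over mid), yki RNAi soma has 0 and 2, and the germ line panels have none.

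Nuclear genes for the same organelle were set beside the members. In early soma, yki RNAi over hpo RNAi, none of 73 mitochondrial ribosomal protein genes passed edgeR's test (median log2 fold change 0.09), and none of 25 factors that replicate, transcribe or process the mitochondrial genome did (median -0.06). Of 71 nuclear-encoded respiratory subunits 1 rose, ND-B17, a complex I subunit (log2 fold change 0.85, adjusted p = 0.0296, list median 0.19), where 2.45% of all genes passed. For soma over germ line, 32 of 74 nuclear-encoded respiratory subunits rose and 3 fell in mid yki RNAi cells (median 0.70), 13 rose and 4 fell in late yki RNAi cells (0.40), 28 rose and 2 fell in mid hpo RNAi cells (0.67), and 5 rose and 3 fell in late hpo RNAi cells (0.07). Of all genes 19.5%, 19.8%, 19.4% and 19.1% rose in these comparisons. The count of 13 in late yki RNAi cells was thus near the background, and that of 5 in late hpo RNAi cells was below it. Cyt-c1, the cytochrome c1 of complex III, rose in all 4, by 0.99, 0.94, 1.22 and 0.68 in the same order (adjusted p at most 0.000195 in edgeR). ND-49, a complex I subunit, fell in all 4, by 0.38, 0.56, 0.39 and 0.95.

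Of the 25 genome expression factors, 6, 13, 6 and 15 fell in soma over germ line (mid yki RNAi, late yki RNAi, mid hpo RNAi, late hpo RNAi), and 1 rose in each, TFAM, which packages the mitochondrial genome. Of all genes 19.4%, 18.3%, 18.5% and 17.6% fell in these comparisons, so that the counts of 6 were near the background. TFAM rose by log2 0.70, 0.76, 0.85 and 0.51. PolG1, the catalytic subunit of the mitochondrial DNA polymerase, fell by 1.65, 2.11, 1.27 and 2.02, and PolrMT, the mitochondrial RNA polymerase, fell by 1.16 in late yki RNAi cells (adjusted p = 6.45e-06 in edgeR). Of the 73 ribosomal protein genes 5, 7, 8 and 1 rose, where 19.5%, 19.8%, 19.4% and 19.1% of all genes rose, and 1, 6, 0 and 14 fell. mRpS5, of the small mitochondrial ribosomal subunit, rose in all 4, by 2.48, 2.33, 2.59 and 1.49.

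For late over mid, the respiratory subunits fell in 25 of 71 (yki RNAi soma, median -0.77) and 34 of 71 (hpo RNAi soma, median -0.86), and none rose. Among these were Cyt-c-p, a cytochrome c, in yki RNAi soma (-1.35, adjusted p = 0.00109 in edgeR) and ND-SGDH, a complex I subunit, in hpo RNAi soma (-1.22, adjusted p = 0.000165). Ribosomal protein genes fell in 10 and 20 of 73 in the same comparisons, and genome expression factors in 5 and 6 of 25, where 6.53% and 6.38% of all genes fell. In mid over early hpo RNAi soma, where 9 mitochondrially encoded genes rose, 0 of 71 respiratory subunits and 1 of 73 ribosomal protein genes (mRpL33, 1.91, adjusted p = 0.0263) rose, and none fell, where 1.15% of all genes rose.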

How the data were processed

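Poly-A RNA of sorted somatic and germ line cells was measured in 30 libraries (10 groups of 3). Each gene's value, as deposited by the authors, is an estimated count that was not normalized. The submitters' processing notes name bcl2fastq 2.2, RSEM 1.3.3, STAR 2.7.6a and DESeq2 1.26.0, with no role or order; genome build, annotation and strand are not given in the sources used here. Per the labels' protocols, libraries were amplified by 15 PCR cycles. All values of the members were whole (tolerance 1e-06), against 86.5% of all values, and values were rounded before any test. Another 18 columns belong to no sample here and were not used.

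The members and gene lists were chosen with earlier results of these data known. Symbols and positions came from the BDGP6.54 annotation, matched by gene ID for 16206 of 16257 rows; 38 mitochondrial genes are annotated there, and the others were not analysed here. CPM is counts per library total; precision between groups comes from the spread of 3 libraries.

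Tests used R 4.3.3, edgeR 4.0.16 (limma 3.58.1) with TMM scaling, filterByExpr (minimum count 10), trended dispersion and quasi-likelihood tests with Benjamini-Hochberg adjustment over all genes. Soma (18 libraries, 10672 genes), germ line (12 libraries, 10717 genes) and both (30 libraries, 12089 genes, for soma over germ line) were fitted apart. Every fit was also run on simulated data. The simulated counts did not copy the outlying libraries seen here, and the outcome is not given. SE is the log2 fold change divided by the root of the test's F.

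Every protein-coding member and both rRNAs were described by level. Called members were named up to the 4 largest changes per direction and comparison, and up to 2 genes per list, direction and comparison. Genes named outside this rule (each of the 15 in early soma, mt:ATPase6 in the late germ line and late hpo RNAi cells, mt:lrRNA in mid hpo RNAi cells, mt:CoII in the germ line, and members that changed side without 1 library or did not overlap) were chosen after their values were seen. No sample was imputed. Alternatives were DESeq2 1.42.0, RLE factors, library totals, scaling without the members, no or stricter filter (5 CPM in 3 libraries), only the compared libraries, the replicate block and leaving out each library.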

Additional observations from a re-analysis of the deposited data

How the results depend on the processing

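Counts of called members moved by over 1.5 times under these settings, and the cause was not tested. Under DESeq2 they were 10 (early soma, yki RNAi over hpo RNAi), 1 (late germ line, same contrast), 6 (yki RNAi soma, late over mid) and 4 (yki RNAi germ line, late over mid). With library totals, mid yki RNAi soma over germ line gave 5, and with no filter early soma gave 6. With only the compared libraries, early soma gave 5, mid yki RNAi soma over germ line 3, late yki RNAi 16, late hpo RNAi 5, yki RNAi soma late over mid 7, hpo RNAi soma mid over early 0 and late over mid 1. The replicate block gave 1, 4 and 5 for these last 3. The share of all genes that passed is not given here beside these counts, or beside those with a library left out. They show only that the number of called members moved with the setting. The replicate numbers come from the sample titles. Correlations of same-numbered deviations ran from -0.18 to 0.32. No differently numbered pairs are given beside them, so a shared preparation cannot be told from these values. The samples were not taken as paired.

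Leaving out a library gave 0 to 1 (early soma), 2 to 10 (mid yki RNAi soma over germ line), 7 to 10 (late yki RNAi), 9 to 12 (mid hpo RNAi), 1 to 3 (late hpo RNAi), 0 to 1 (yki RNAi soma late over mid), 0 to 12 (hpo RNAi soma mid over early), 1 to 12 (late over mid) and 0 to 3 (early minus mid), and 0 elsewhere. Without both rRNAs the share was 4.76%, 5.53% and 3.15% (yki RNAi soma, early to late), 2.31%, 6.25% and 2.65% (hpo RNAi soma, early to late), 3.22% and 1.65% (yki RNAi germ line, mid and late) and 2.62% and 2.63% (hpo RNAi germ line).

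None of the 41 named results reversed under any setting run. RLE factors, the stricter filter and scaling without the members changed no call of the 41 named results. Depth limits mt:ND4L (median 289 counts) and the tRNAs, which had few counts, and 3 libraries per group limit all tests. mt:srRNA and mt:ATPase8 had as few as 114 and 204 counts in a library, but medians of 1241 and 1095.5. The part of depth in their spread was not tested.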
